A study of Mus musculus with 4 samples.

Results

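The 10 genes Aldoc, Sparcl1, Cpe, Pea15a, Slc1a3, Glul, Clu, Apoe, S100b and Gja1 are much used as marks of astrocytes, and their signal was followed here in neurospheres and in embryonic stem (ES) cells of the mouse. Every probe set (the group of probes on the array that reads 1 transcript) whose single gene symbol in the array's annotation is one of these names was taken, whatever its value. That gave 14 probe sets of 12422, for 9 of the 10 genes and of the 8251 genes that the array names. No probe set carried the name Slc1a3 in the annotation used, so that gene was not analysed here. Aldoc, Sparcl1, Pea15a and S100b had 1 probe set each, and Cpe, Glul, Clu, Apoe and Gja1 had 2 each.

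The 4 MG_U74Av2 arrays each held total RNA of 1 culture. Neurospheres, which are balls of neural stem cells and their progeny grown without attachment, came from E13.5 telencephalon (E counts the days of gestation), grew with FGF2 in a DMEM and F12 medium, and gave 1 array. R1, an established mouse ES cell line, gave 2 arrays of embryoid bodies (titled aggregation and suspension), which had been kept unattached for 48 hours, and 1 array of adherent cells on gelatin. All R1 cultures held LIF and beta-mercaptoethanol in DMEM. No genotype, strain or treatment that sets one R1 culture apart from another is given beyond attachment, and no age is given beyond the embryonic day. The labels name astrocytes, other glia and oligodendrocytes as contaminants of the neurosphere culture, so the culture was not a pure population, and both embryoid body arrays carry 1 sample identifier. Nothing says that these 2 arrays came from separate cultures, so the p-values measure only the spread between them, which may be technical.

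Astrocytes are glial cells that take up glutamate and turn it into glutamine, supply neurons with lipids, buffer the fluid around them and are joined to each other by gap junctions. In the embryonic forebrain they arise from radial glia, the progenitors that neurospheres are grown from, and radial glia already use part of the astrocyte gene set. Several of these genes are also used by other cells: Gja1, Apoe, Glul and Clu are found in many tissues. A bulk array cannot tell fewer cells of a type from less RNA per cell.

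The proximal promoters of Aldoc and Pea15a, the 2 genes with the largest differences between neurospheres and R1 cells, and of Gja1, the only gene with a probe set that fell, are shown because these genes moved in opposite directions. Each is the 250 bases before the outermost RefSeq start site on GRCm38.p6, 5′ to 3′ on the gene's strand, at chr11:78322823-78323072 (plus strand) for Aldoc, chr1:172206805-172207054 (minus strand) for Pea15a and chr10:56377050-56377299 (plus strand) for Gja1. Capitals mark matches on either strand to TTGGCA, the half-site of the nuclear factor I proteins, or GGGCGG, the GC box.
Aldoc: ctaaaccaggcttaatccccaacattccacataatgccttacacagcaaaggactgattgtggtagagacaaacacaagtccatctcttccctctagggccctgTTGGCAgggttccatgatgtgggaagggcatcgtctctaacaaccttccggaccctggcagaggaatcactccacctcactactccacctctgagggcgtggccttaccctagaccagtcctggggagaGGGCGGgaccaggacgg
Pea15a: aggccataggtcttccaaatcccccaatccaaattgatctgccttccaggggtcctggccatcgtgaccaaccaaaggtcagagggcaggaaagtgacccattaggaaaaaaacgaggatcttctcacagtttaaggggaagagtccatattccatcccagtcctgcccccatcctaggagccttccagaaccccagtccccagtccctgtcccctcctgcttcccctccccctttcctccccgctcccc
Gja1: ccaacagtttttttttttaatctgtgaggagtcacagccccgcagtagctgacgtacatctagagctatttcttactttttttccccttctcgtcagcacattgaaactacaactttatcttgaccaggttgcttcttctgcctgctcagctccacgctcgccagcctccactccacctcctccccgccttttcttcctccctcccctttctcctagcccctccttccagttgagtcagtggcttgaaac
Of these windows, Aldoc held 1 nuclear factor I half-site and 1 GC box, and the windows of Pea15a and Gja1 held neither. TTGGCA was in 12.3% and GGGCGG in 32.7% of all 32851 RefSeq promoter windows of this length. The STAT motif TTCNNNGAA (in 7.02% of windows) and the TATA box TATAAA (in 12.4%) had no match in these windows, and the motifs do not overlap each other in them. RefSeq gave 7 of the 10 genes a promoter window. A match is a description of letters and no evidence of a bound factor.

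Values below are the authors' MAS5 signal, a linear intensity, rescaled so that the 2% trimmed mean of each array was 500. The median signal was 242 on the neurosphere array, 225 and 236 on the embryoid body arrays and 178 on the adherent array, and the 10th percentile was 33.8, 29.5 to 33.7, and 17.4 on those arrays. Signals near the 10th percentile were not separated from background, since no detection calls were used. Differences are on the log2(signal + 32) scale, which understates changes of dim probe sets. For neurospheres against R1 cells, the 2 embryoid body arrays were first averaged, and that average and the adherent array then had equal weight. They come from limma's test of 8031 probe sets that reached the array median on at least 1 array, two-sided, with Benjamini-Hochberg adjustment over all of them and a threshold of 0.05. Only the 2 embryoid body arrays give a spread, and the single arrays are assumed to vary as those do.

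Of the 14 probe sets, 12 were tested, and in neurospheres 5 of them rose, 1 fell and 6 did not pass the test. By gene, Aldoc, Sparcl1, Cpe and Pea15a rose, Gja1 fell on the brighter of its probe sets, and Glul, Clu and Apoe had no probe set that passed. Over all 8031 probe sets tested, 8.09% rose and 11.6% fell (19.7% either way). In numbers, 650 rose and 935 fell, and 541 rose and 1371 fell when arrays were scaled to one median instead. The median difference of the 12 was 0.65, against 0.10 over all probe sets tested. Pea15a and Sparcl1 reached the array median on the neurosphere array alone, so these 2 could pass the signal filter only by being high there. The count and median of those that passed, and the p-values and ranks of these 2, are therefore given as a description.

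Aldoc and Pea15a, which act inside the cell, had the largest differences from the averaged R1 cells, although against embryoid bodies alone that of Aldoc was the smallest of the 5 probe sets that rose. Aldoc encodes aldolase C, the brain form of a glycolytic enzyme, and is a widely used astrocyte marker. Its probe set 160546_at (gene at chr11:78323073-78327781) had a signal of 4279 in neurospheres, against 194 in the aggregation and 599 in the suspension embryoid bodies and 88.5 in adherent cells. The neurosphere array was above every R1 array, 7.14 times the highest of them, and the R1 arrays themselves were spread widely. The embryoid body arrays averaged 397 ± 286 (SD, n = 2). The difference between neurospheres and R1 cells was 4.34 ± 0.52 (SE) in log2, with a 95% interval of 3.26 to 5.42 and a limma adjusted p of 2.21e-06, the 18th largest rise of the 8031. It passed against the embryoid bodies alone, at 3.51, and against the adherent array alone, at 5.16.

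Pea15a encodes a small phosphoprotein rich in astrocytes that binds ERK kinases and death effector proteins. Its probe set 100548_at (gene at chr1:172196728-172206804) had 7219 in neurospheres, against 79.2 and 94.2 in the aggregation and suspension embryoid bodies and 33.1 in adherent cells. All R1 signals lay below their array medians, and the neurosphere signal was 76.6 times the highest of them. With a difference of 6.37 ± 0.61 (SE), a 95% interval of 5.10 to 7.63 and a limma adjusted p of 9.46e-08, it was the 3rd largest rise among the 8031 probe sets. The embryoid body arrays lay close together, at 86.7 ± 10.6 (SD, n = 2).

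Sparcl1 and Cpe encode secreted or vesicle proteins. Sparcl1, also called hevin, is a matrix protein that astrocytes release and that promotes synapse formation. Its probe set 160319_at (gene at chr5:104079108-104114088) had 1069 in neurospheres, against 73.0 and 29.6 in the aggregation and suspension embryoid bodies and 36.6 in adherent cells. The R1 signals were low throughout, and that of the suspension array was under the 10th percentile of its array, so the size of the difference depends on the value added before taking log2. It was 3.89 ± 0.90 (SE) in log2, with a 95% interval of 2.03 to 5.75 and a limma adjusted p of 0.00315. The neurosphere signal was 14.6 times the highest R1 signal.

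Cpe encodes carboxypeptidase E, which trims prohormones in secretory granules and is made by neurons and endocrine cells as well as by astrocytes. Its probe set 99643_f_at (gene at chr8:64592542-64693109) had 2909 in neurospheres, against 224 and 60.9 in the aggregation and suspension embryoid bodies and 231 in adherent cells. Probe set 99642_i_at of the same gene had 1814 in neurospheres, against 81.9 and 35.0 in the embryoid bodies and 249 in adherent cells. On both probe sets the neurosphere signal stood above every R1 signal, and the suspension array was the lowest, near the 10th percentile of its array on 99642_i_at. The differences were 3.87 ± 0.59 and 3.56 ± 0.67 (SE) in log2, with limma adjusted p-values of 4.95e-05 and 4.65e-04. The _f and _i endings mark probe sets designed under relaxed rules, and both probe sets of Cpe are of this kind, so a share of their signal from related transcripts was not tested.

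**Figure D1:**
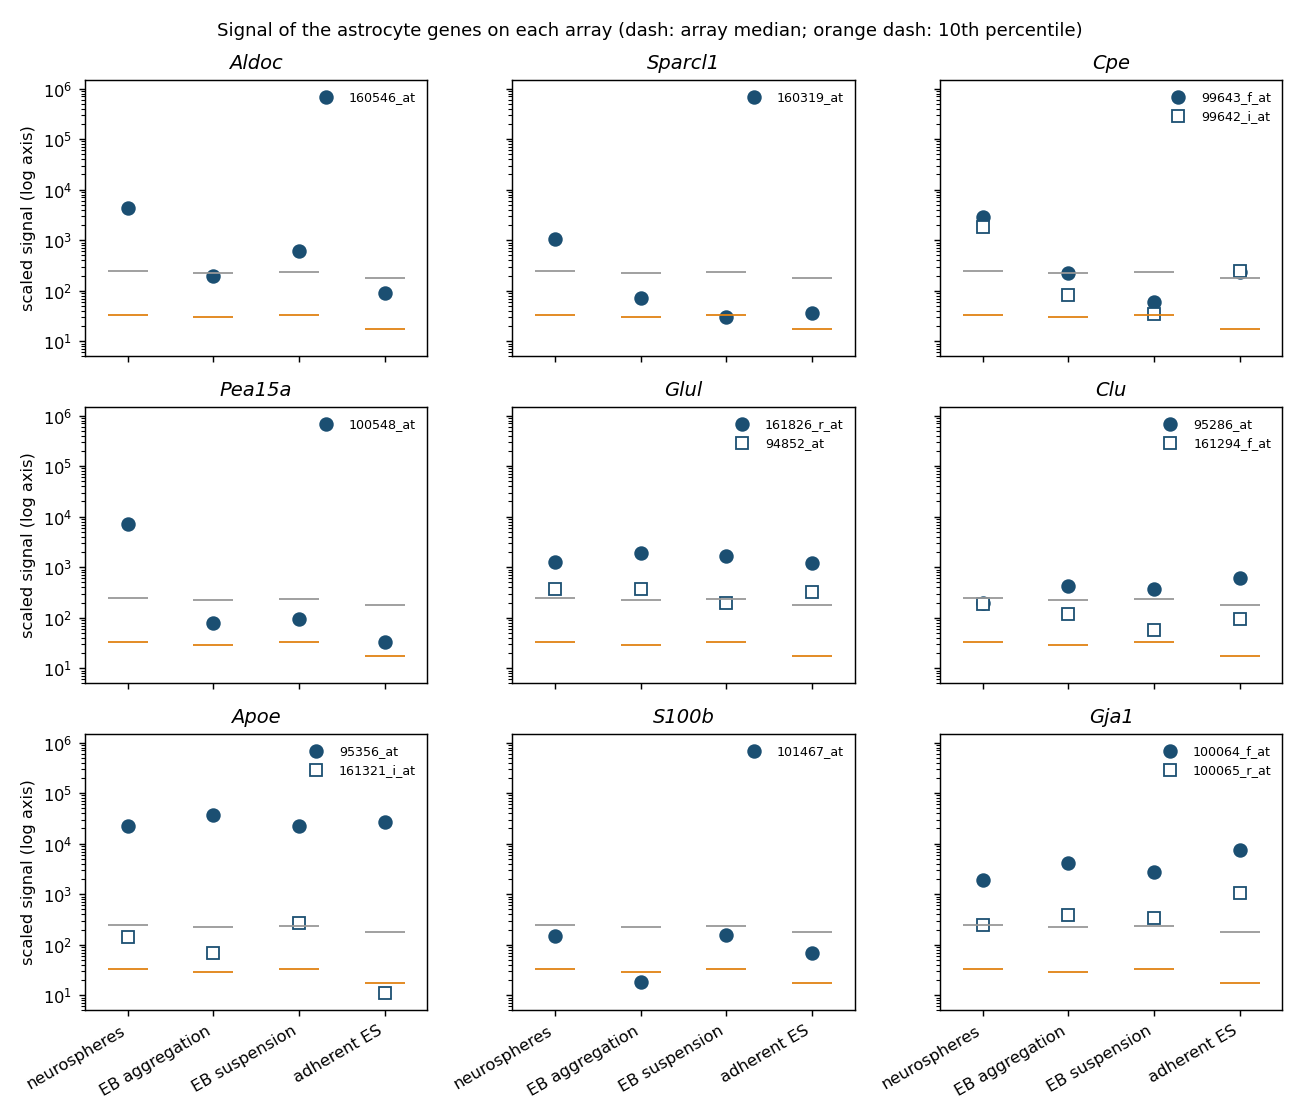
Scaled signal (log axis) of the 14 probe sets of the astrocyte genes on the 4 arrays, 1 panel for each of the 9 genes with a probe set, with the neurosphere array at the left; grey dashes mark the median and orange dashes the 10th percentile of each array. In the panels of Aldoc, Sparcl1, Cpe and Pea15a the neurosphere points stand alone above the R1 points, and in the panel of Gja1 they are the lowest.

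On their brighter probe sets, Glul and Apoe gave signal above the array median in neurospheres and in R1 cells, and Clu in R1 cells alone. Glul encodes glutamine synthetase, which in the brain is made largely by astrocytes and turns glutamate into glutamine. Its probe set 161826_r_at (gene at chr1:153899929-153909723) had 1246 in neurospheres, against 1881 and 1641 in the aggregation and suspension embryoid bodies and 1198 in adherent cells. The neurosphere signal lay within the R1 range. The difference was -0.21 ± 0.31 (SE), with a 95% interval of -0.86 to 0.43 and a limma adjusted p of 0.67. The other probe set of Glul, 94852_at, had 375 in neurospheres, against 371 and 199.9 in the embryoid bodies and 326 in adherent cells, a difference of 0.30 with a 95% interval of -0.88 to 1.48. Neither probe set passed, and both intervals span 0.

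Apoe encodes apolipoprotein E, the main lipid carrier that astrocytes secrete, and is also made by macrophages and many other cells. Its probe set 95356_at (gene at chr7:19696244-19701310) had 22419.8 in neurospheres, against 37419.6 and 22272 in the aggregation and suspension embryoid bodies and 27298 in adherent cells. These signals lay between the 99.5th and 99.9th percentiles of their arrays. The difference between neurospheres and R1 cells was -0.32 ± 0.31 (SE), with a 95% interval of -0.96 to 0.31 and a limma adjusted p of 0.492. The dim probe set 161321_i_at had 140 in neurospheres, 67.5 and 270 in the aggregation and suspension embryoid bodies and 10.9 in adherent cells, the last under the 10th percentile of its array. Its difference of 0.99 had a 95% interval of -1.16 to 3.15 and did not pass, so the 2 probe sets of Apoe differ in sign without either passing the test.

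Clu encodes clusterin, a secreted chaperone and lipoprotein that astrocytes release. Its probe set 95286_at (gene at chr14:65968483-65981548) had 198 in neurospheres, against 424 and 363 in the aggregation and suspension embryoid bodies and 606 in adherent cells. The neurosphere signal was below all R1 signals, yet the difference of -1.18 ± 0.51 (SE), with a 95% interval of -2.24 to -0.13, gave a limma adjusted p of 0.11 and did not pass. It passed with arrays scaled to one median (-1.41, adjusted p = 0.0362). The second probe set, 161294_f_at, ran the other way, with 184 in neurospheres, 118 and 58.2 in the aggregation and suspension embryoid bodies and 95.8 in adherent cells. It stayed below the median of every array and was not tested.

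Gja1, which encodes connexin 43, the main gap junction protein of astrocytes and also a junction protein of ES cells, fell in neurospheres. Its probe set 100064_f_at (gene at chr10:56377300-56390419) had 1896 in neurospheres, against 4219 and 2766 in the aggregation and suspension embryoid bodies and 7346 in adherent cells. The second probe set, 100065_r_at, had 244 in neurospheres, against 394 and 339 in the embryoid bodies and 1060.0 in adherent cells. Both probe sets placed the arrays in the same order, with neurospheres lowest and adherent cells highest. As for Cpe, both are of classes designed under relaxed rules (_f and _r), so a share of their signal from related transcripts was not tested.

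The first probe set of Gja1 differed by -1.39 ± 0.29 (SE) between neurospheres and R1 cells, with a 95% interval of -1.98 to -0.79 and a limma adjusted p of 0.00125. The second differed by -1.25 ± 0.47 (SE), with an adjusted p of 0.0665, and did not pass, although it did with arrays scaled to one median (-1.49, 0.0149). The size turned on which R1 culture was used: against the adherent array alone the first probe set differed by -1.94 (limma adjusted p = 3.69e-04), and against the embryoid bodies alone by -0.84 (0.0586), which did not pass. Without the aggregation array the call was also lost (-1.24, adjusted p = 0.12), and likewise without the intensity trend in the variance (adjusted p = 0.139). On neither probe set was the neurosphere signal 2-fold below the lowest R1 signal.

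S100b encodes a calcium-binding protein used as a mark of maturing astrocytes. Its probe set 101467_at (gene at chr10:76253836-76261319) had 147 in neurospheres, against 18.4 and 156 in the aggregation and suspension embryoid bodies and 68.3 in adherent cells. It was below the array median on all 4 arrays and was not tested, and the embryoid body arrays alone spanned more than the neurosphere signal's distance from adherent cells. At the filter's edge, the highest signal relative to the median of its array was 0.661 for S100b and 0.761 for Clu 161294_f_at, which were left out, and 1.14 for Apoe 161321_i_at and 1.83 for Glul 94852_at, which were kept.

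Read without a test, the neurosphere array was above every R1 array on 6 of the 12 tested probe sets, below every one on 3 and within their range on 3. Among all probe sets tested, 34.8% were above every R1 array and 32.1% below every one. For 5 of the 12, those of Aldoc, Sparcl1, Cpe and Pea15a, the neurosphere signal was at least 2-fold above every R1 array, a gap seen in 10.4% of all probe sets tested. The differences of these 5 ranked from 3 to 59 of 8031 from the top. Since Pea15a and Sparcl1 were among the probe sets tested only through their neurosphere signal, these counts and ranks are a description too.

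**Figure D2:**
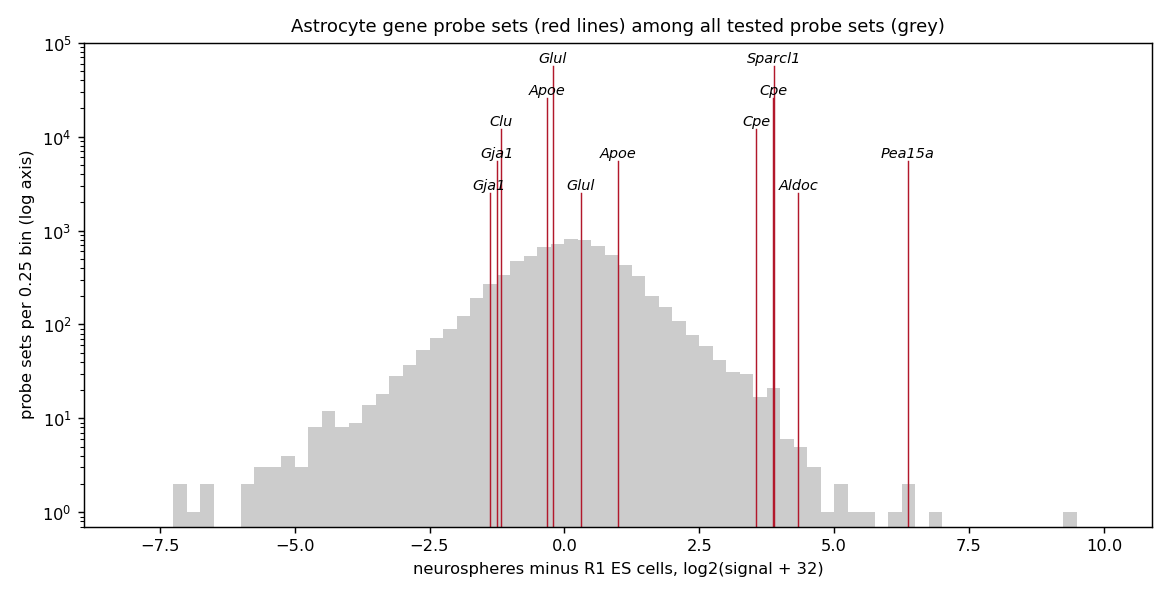
Number of probe sets (log axis) in bins of 0.25 of the difference between neurospheres and R1 ES cells on the log2(signal + 32) scale, for all 8031 tested probe sets (grey), with a red line at each of the 12 tested probe sets of the astrocyte genes; line heights only keep the names apart. The lines of Aldoc, Sparcl1, Cpe and Pea15a lie between 3.56 and 6.37, and those of the other genes between -1.39 and 0.99.

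The neurosphere and aggregation arrays had been deposited on one low scale, with trimmed means of 29.9 and 33.0, and the suspension and adherent arrays on one high scale, at 1501 each. This split was a property of the deposited values, and neurospheres against aggregation is the one such comparison within the low scale. Within it the difference, 1 array against 1 and without a test, was 4.25 for Aldoc, 3.39 for Sparcl1, 3.52 and 4.02 for the 2 probe sets of Cpe, and 6.03 for Pea15a. All 5 were higher on the neurosphere array in this comparison, which reuses 2 arrays of the main test. Any effect of the deposited scale was not tested. Gja1 differed by -1.14 and -0.62 on its 2 probe sets in the same comparison, Clu by -0.99, Glul by -0.58 and 0.01 and Apoe by -0.74 and 0.79.

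The second comparison asked whether the astrocyte genes changed when R1 cells were grown unattached. Embryoid bodies were set against adherent cells in the same model, so both comparisons share the R1 arrays. None of the 12 tested probe sets passed limma's test in either direction, and 4 had an unadjusted p under 0.05. Among all probe sets tested, 0.261% rose and 0.0872% fell in embryoid bodies (0.349% either way), and 1103 had an unadjusted p under 0.05. These calls were 21 higher and 7 lower, and 40 higher and 390 lower with arrays scaled to one median. The median difference was -0.07 for the 12 and 0.10 for all.

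The members with an unadjusted p under 0.05 were Aldoc, both probe sets of Gja1 and 1 of Cpe. Aldoc was brighter in embryoid bodies than in adherent cells by 1.65, with a 95% interval of 0.52 to 2.78 and a limma adjusted p of 0.188, and the suspension array lay above the aggregation array by 1.48. Gja1 was lower in both embryoid body arrays than in adherent cells, with differences of -1.10 (95% interval -1.72 to -0.47, limma adjusted p = 0.105) and -1.46 (-2.48 to -0.43, 0.202). With arrays scaled to one median, both Gja1 probe sets passed, at -1.47 (limma adjusted p = 8.55e-04) and -1.81 (0.0196). Within the high scale, suspension minus adherent was -1.40 and -1.56 for them. Cpe 99642_i_at differed by -1.69 (95% interval -3.13 to -0.24, limma adjusted p = 0.286), while 99643_f_at differed by -0.77 with an interval that spans 0. The differences of Pea15a (0.86), Sparcl1 (0.23), Glul (0.54 and -0.23), Clu (-0.59) and Apoe (0.08 and 2.01) all had 95% intervals that span 0.

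**Figure D3:**
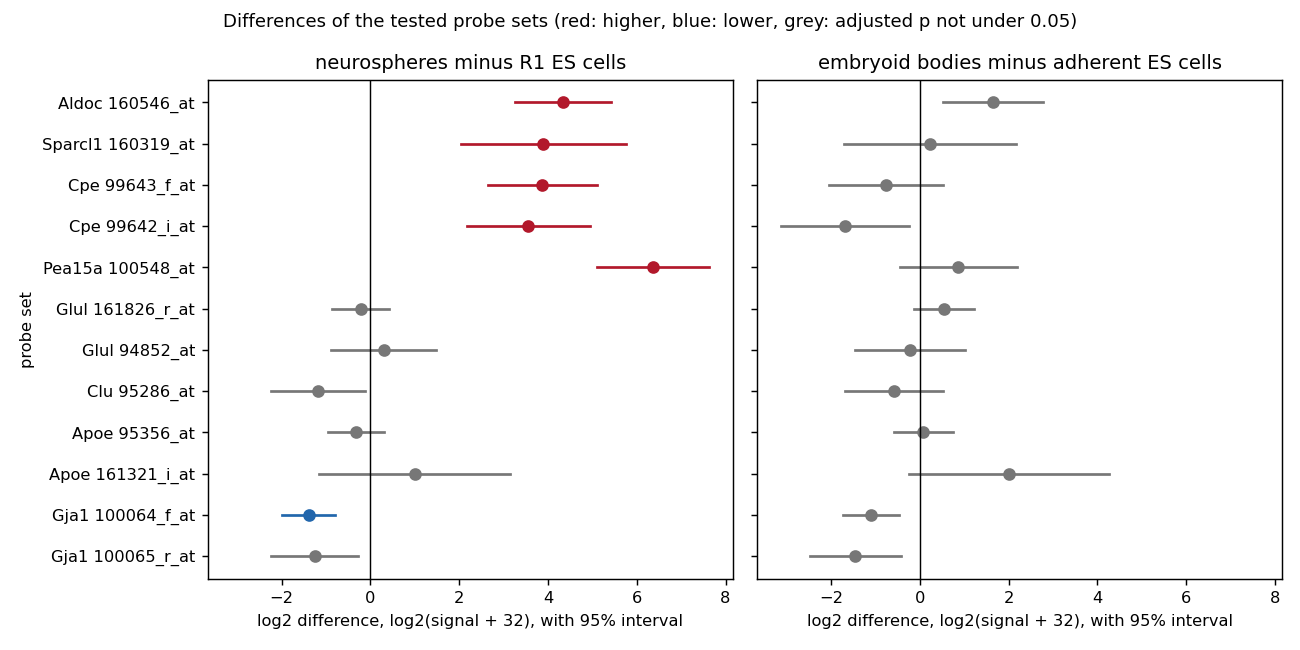
Differences on the log2(signal + 32) scale with 95% intervals from limma for the 12 tested probe sets of the astrocyte genes, neurospheres minus R1 ES cells at the left and embryoid bodies minus adherent ES cells at the right; red points rose, blue points fell and grey points did not pass an adjusted p of 0.05. The 5 red points at the left lie between 3.56 and 6.37, the 1 blue point is Gja1 at -1.39, and all points at the right are grey.

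The 2 embryoid body arrays, the only ones that give a spread, differed little for some members and much for others. The SE of a probe set rested mostly on the spread pooled over probe sets of like signal, and little on its own gap. This pooled part had 20.46 prior degrees of freedom, against 1 residual degree of freedom. The SE was thus 0.61 for Pea15a and 0.52 for Aldoc, although the gap of Aldoc was the wider. On the log2(signal + 32) scale, aggregation minus suspension was -0.18 for Pea15a, 0.21 for Clu 95286_at and 0.19 and 0.80 for the 2 probe sets of Glul. It reached -1.48 for Aldoc, 1.46 and 0.76 for the 2 probe sets of Cpe, 0.77 for Sparcl1 and 0.75 and -1.60 for the 2 of Apoe. The 5 probe sets that rose passed limma's test in every alternative that kept them, with lowest differences of 3.51 for Aldoc, 3.03 for Sparcl1, 3.45 and 2.72 for Cpe and 5.54 for Pea15a.

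Among 44 other astrocyte genes listed for comparison, 31 had a probe set and 28 were tested. In neurospheres 12 of them rose on at least 1 probe set, 0 fell and 16 did not pass. The median of their 34 tested probe sets was 1.91, against 0.10 for all. Over all probe sets tested, 8.09% rose and 11.6% fell. Ednrb, Pla2g7, Nfib and Slc4a4, among others of this list, reached the array median on the neurosphere array alone. They could be tested only by being high there, so this count and median are a description. Dbi, the acyl-CoA-binding protein that astrocytes also release as a neuropeptide, had a signal of 16996 in neurospheres, against 623 and 1249 in the aggregation and suspension embryoid bodies and 671 in adherent cells, a difference of 4.41 ± 0.34 (SE; limma adjusted p = 3.14e-09). Mt3, the brain metallothionein that binds zinc, had 12719 in neurospheres, against 1135 and 599 in the embryoid bodies and 773 in adherent cells, a difference of 3.94 ± 0.34 (1.84e-08). Ednrb, an endothelin receptor of glia, differed by 3.77 ± 0.98 (0.00821), and Pla2g7, a secreted phospholipase, by 3.30 ± 0.86 (0.0079). The other 8 risers, Nfib, Plpp3, Slc4a4, Nfix, Cst3, Id3, Gstm1 and Mfge8, lay between 1.38 and 3.00.

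**Figure D4:**
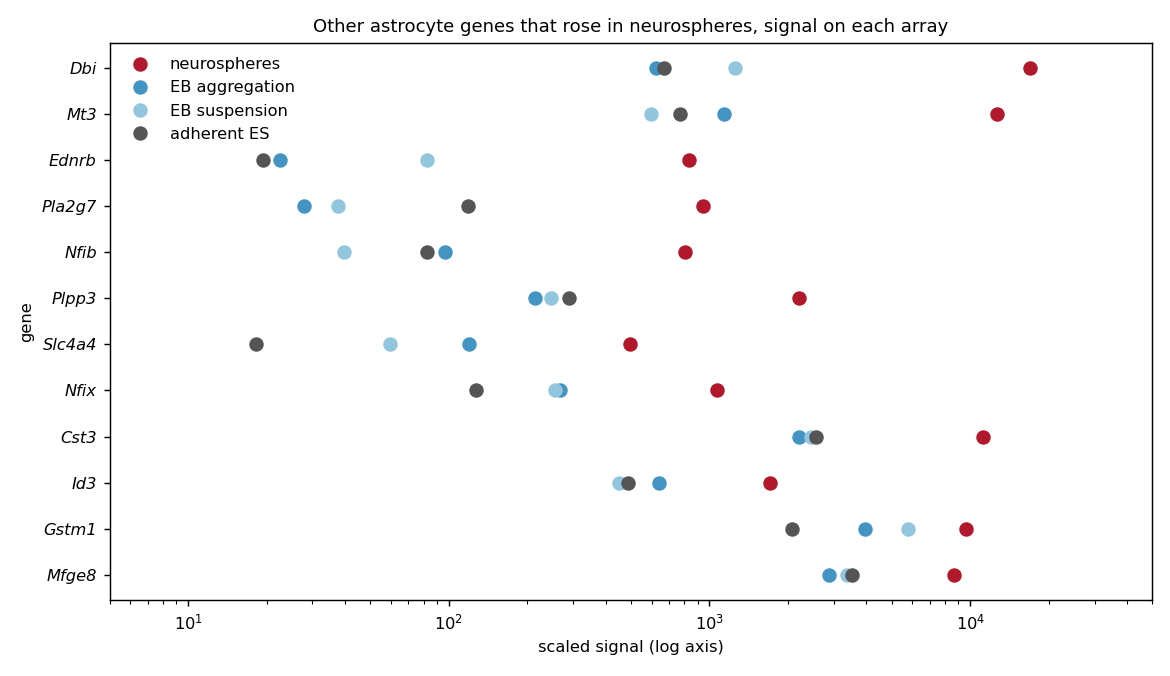
Scaled signal (log axis) on each of the 4 arrays of the 12 other astrocyte genes that rose in neurospheres, in order of their difference. For each gene the red point (neurospheres) lies above the points of both embryoid body arrays and of the adherent array.

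Gfap and Aqp4, defining genes of mature astrocytes that were picked for mention after their values were seen, did not pass. Gfap, the intermediate filament of astrocytes, had 384 in neurospheres on its probe set 94144_g_at, against 130 and 215 in the aggregation and suspension embryoid bodies and 143 in adherent cells, a difference of 1.15 ± 0.69 (SE) with a limma adjusted p of 0.262. Its other probe set, 94143_at, had 52.0 in neurospheres, against 110 and 39.6 in the embryoid bodies and 60.0 in adherent cells, and was not tested. Aqp4, the water channel of astrocyte endfeet, had 251 in neurospheres on its probe set 102704_at, against 61.0 and 225 in the embryoid bodies and 19.7 in adherent cells, a difference of 1.66 ± 0.97 (SE) with an adjusted p of 0.245. The other probe set of Aqp4, 102703_s_at, had 98.2 in neurospheres, against 43.0 and 47.3 in the embryoid bodies and 10.9 in adherent cells, and was not tested. On the tested probe sets of Gfap and Aqp4 the neurosphere signal was above every R1 signal. The lack of a call therefore does not show that these 2 markers were unchanged.

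Markers of other cells that a neurosphere culture could hold were read beside the 4 risers. Of 14 radial glia and neural progenitor genes on the array, 13 were tested, 7 rose and 0 fell. The sum of the brightest signals of the 14 was 74492 in neurospheres, against 12569 and 13132 in the aggregation and suspension embryoid bodies and 11599 in adherent cells. Fabp7 alone gave 41867 of the neurosphere sum, and Sox2, which did not pass (6644 in neurospheres, against 8859 and 9981 in the embryoid bodies and 9397 in adherent cells), most of the R1 sums. Of 9 oligodendrocyte lineage genes, 6 were tested, Nkx2-2, Pdgfra and Sox10 rose and 0 fell. The sum was 3635 in neurospheres, 1984 and 2264 in the embryoid bodies and 1149 in adherent cells, and 5 of the 9 were below the array median in neurospheres. Pdgfra rose on 95079_at, with 1394 in neurospheres. Its probe set 160332_at, the one in the sum, had 394 there, against 117, 400 and 156 in R1 cells, and did not pass. Sox10 100283_at had 67.5 in neurospheres, against 82.3, 39.2 and 43.7 in R1 cells, and was not tested. Of 15 neuronal genes, 9 were tested, 2 rose and 3 fell, with sums of 9961 in neurospheres, 8530 and 9503 in the embryoid bodies and 6717 in adherent cells. Tubb3 fell on its dimmer probe set 161612_f_at. Its probe set 160462_f_at, which gave most of the neurosphere sum, had 5991 there, against 4485, 4326 and 3069 in R1 cells, and did not pass. Stmn2 fell on 95669_g_at and 95670_at, while 95668_at had 286 in neurospheres, against 21.5, 93.4 and 156 in R1 cells, and did not pass. Map2 had 467 in neurospheres, against 25.5, 32.2 and 12.1 in R1 cells, and narrowly did not pass (3.27, limma adjusted p = 0.0517). Dcx had 467, against 158, 183 and 38.3, and did not pass either (2.07, 0.0586). Both reached the array median on the neurosphere array alone. Nefh went the other way without passing, with 62.2 against 288, 249 and 356 (-1.86, 0.0555). The called probe sets of Fabp7, Bcan, Ptprz1, Hes5, Notch1, Nkx2-2, Pdgfra, Gap43 and Stmn3 reached the array median on the neurosphere array alone. These could be tested only by being high there, so the counts of risers are a description. Over all probe sets tested, 8.09% rose and 11.6% fell. The part of radial glia, oligodendrocyte lineage cells and neurons in the rise of Aldoc, Sparcl1, Cpe and Pea15a was not tested.

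Markers of cells from outside the neural lineage were read in the same way. The shares over all probe sets tested, for each list here, were 8.09% that rose and 11.6% that fell. Of 15 microglia and macrophage genes, relevant to Apoe, 6 were tested, 1 rose and 1 fell. Csf1r, a growth factor receptor of macrophages, had 1211 in neurospheres on its brighter probe set, 161832_r_at, against 878 and 547 in the aggregation and suspension embryoid bodies and 403 in adherent cells (1.15, limma adjusted p = 0.0498). Its other probe set, 104354_at, had 391 in neurospheres, against 277, 170 and 52.8 in R1 cells, and did not pass (1.54, 0.141). Cd68, a lysosomal protein of macrophages, differed by -1.78 (0.00251). Of the 15, 11 were below the neurosphere array median and 2 below its 10th percentile, with sums of 3871 in neurospheres, 4156 and 3426 in the aggregation and suspension embryoid bodies and 2910 in adherent cells. Of 10 endothelial genes, 5 were tested, 0 rose and Eng fell (-1.47, limma adjusted p = 0.00378). In all, 9 of the 10 were below the neurosphere median, with sums of 1096 in neurospheres, 2258 and 2384 in the embryoid bodies and 2145 in adherent cells. Of 12 pluripotency genes, 11 were tested, 10 fell and 0 rose, with a sum of 2289 in neurospheres, against 66488 and 76824 in the embryoid bodies and 67539 in adherent cells. Of 11 fibroblast and mesenchyme genes, 8 were tested and 0 passed limma's test (1 probe set had an unadjusted p under 0.05). Of 12 primitive endoderm genes, 6 were tested, 0 rose and Lama1 fell (-2.85, limma adjusted p = 0.00663). The sums for fibroblasts and mesenchyme were 4891 in neurospheres, 6768 and 6144 in the embryoid bodies and 2559 in adherent cells, and those for primitive endoderm were 2735 in neurospheres, 2045 and 2268 in the embryoid bodies and 3789 in adherent cells. Their part in the differences of Apoe, Clu and Gja1 was not tested.

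Partners of the members gave a mixed picture, beginning with glutamate. Of 16 genes of glutamate and glutamine handling on the array, besides Glul, 11 were tested. In neurospheres 0 rose and 2 fell (8.09% and 11.6% of all probe sets tested). Asns, asparagine synthetase, which uses glutamine as its nitrogen donor, had 2366 in neurospheres on its brighter probe set, 95133_at, against 10348 and 10900 in the aggregation and suspension embryoid bodies and 11845 in adherent cells, a difference of -2.23 ± 0.26 (SE; limma adjusted p = 1.4e-06). Its other probe set, 161221_f_at, differed by -3.21 ± 0.60 (4.42e-04), with a neurosphere signal below the 10th percentile. Slc38a2, a glutamine carrier, differed by -1.76 ± 0.32 (3.61e-04), a call lost without the intensity trend (0.0762). Its 3 other probe sets were below the median of every array and not tested, and ran the other way, with 114 to 150.1 in neurospheres, against 12.4 to 91.0 in embryoid bodies and 8.34 to 29.0 in adherent cells. Slc1a2, the other main glutamate transporter of astrocytes beside Slc1a3, had 327 in neurospheres, against 133 and 90.4 in the embryoid bodies and 123 in adherent cells, and its difference of 1.28 (95% interval -0.35 to 2.91) did not pass (limma adjusted p = 0.275).

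The neuronal transporter Slc1a1 was below the median of every array on both of its probe sets and was not tested. Of 11 connexins and gap junction partners, 5 probe sets were tested, 0 passed limma's test and 1 had an unadjusted p under 0.05. Tjp1, a junction scaffold that binds connexin 43, had 567 in neurospheres, against 737 and 791 in the aggregation and suspension embryoid bodies and 1594 in adherent cells, a difference of -0.92 (limma adjusted p = 0.0768). The difference of Gjb5 was -0.36 (0.607). The other connexin of astrocytes, Gjb6, stayed between 7.55 and 28.9 in neurospheres on its 3 probe sets, below the 10th percentile of 33.8.

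Of 20 genes of lipoproteins, their receptors and lipid transfer, besides Apoe and Clu, 11 were tested. Of these, 2 rose and 4 fell (8.09% and 11.6% of all probe sets tested). Pltp, the phospholipid transfer protein, had 117 in neurospheres, against 2638 and 3744 in the aggregation and suspension embryoid bodies and 3802 in adherent cells, a difference of -4.55 ± 0.32 (SE; limma adjusted p = 5.48e-10). Apoc1, an apolipoprotein encoded next to Apoe, had 23.5 in neurospheres, against 861 and 884 in the embryoid bodies and 1083 in adherent cells, a difference of -4.18 ± 0.47 (9.33e-07). Its neurosphere signal was below the 10th percentile, so the size depends on the value added before log2, at -5.31 with 1 and -3.12 with 100. Apoc1 thus fell while the difference of its neighbour Apoe did not pass. The lipoprotein receptors Scarb1 (1.59 ± 0.37, limma adjusted p = 0.00347) and Lrp1, a receptor for apolipoprotein E (1.39 ± 0.36, 0.00794), rose in neurospheres. Lrp1 was called in 9 of 14 settings and lost its call without either embryoid body array (1.42 without aggregation, 1.36 without suspension), against embryoid bodies alone (1.07), with 2 groups (1.28) and without the intensity trend. Scarb1 was called in 12 of 14, and lost its call without the aggregation array (1.42) and without the trend.

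Relatives of Aldoc, Sparcl1 and S100b did not move as a group. Aldoa, the widely expressed aldolase, had 7368 in neurospheres on its probe set 160090_f_at, against 8713 and 13543 in the aggregation and suspension embryoid bodies and 9689 in adherent cells, a difference of -0.48 (95% interval -1.06 to 0.11, limma adjusted p = 0.256). Its other probe set, 161889_f_at, differed by -0.36 (0.398). Sparc, the relative of Sparcl1, had 399 in neurospheres, against 364 and 437 in the embryoid bodies and 1148 in adherent cells, a difference of -0.73 (0.263). Smoc1, a matrix protein of the same family, rose by 3.10 ± 0.39 (SE; limma adjusted p = 4.74e-06). Of 7 genes of this group on the array, 6 were tested, and only Smoc1 passed (19.7% of all probe sets tested did).

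In the S100 family, 12 genes besides S100b were on the array and 8 were tested. Of these, 0 rose and 1 fell (8.09% and 11.6% of all probe sets tested). S100a6, a calcium-binding protein of dividing cells, had 178 in neurospheres, against 1886 and 1101 in the aggregation and suspension embryoid bodies and 3500.1 in adherent cells, a difference of -3.44 ± 0.36 (SE; limma adjusted p = 3.59e-07). S100a1, which can pair with S100b, had 455 in neurospheres on its probe set 95453_f_at, against 351 and 149 in the embryoid bodies and 11.4 in adherent cells, a difference of 2.19 that did not pass (limma adjusted p = 0.0512). It passed in 4 of 12 settings, and its difference ranged from 0.89 against embryoid bodies alone to 3.49 against the adherent array alone.

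Of 16 genes of prohormone processing besides Cpe, 9 were tested, 0 rose and 2 fell (8.09% and 11.6% of all probe sets tested). Pcsk1n, an inhibitor of a prohormone convertase, differed by -1.64 ± 0.42 (SE; limma adjusted p = 0.00767) and the convertase Pcsk6 by -1.61 ± 0.56 (0.0453). Both calls were lost without the suspension array (-1.39 and -1.28). Over the settings tried, Pcsk1n was called in 10 of 14, with differences from -2.33 to -0.94 and adjusted p-values up to 0.168, and Pcsk6 in 6 of 14. Of 10 partners of PEA15, 7 were tested, 1 rose and 0 fell. The riser was Akt1, a kinase that phosphorylates PEA15. Its signal was 2156 in neurospheres, against 415 and 391 in the aggregation and suspension embryoid bodies and 243 in adherent cells. The difference was 2.66 ± 0.43 (SE; limma adjusted p = 8.61e-05).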

How the data were processed

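RNA was labelled with biotin and hybridised to 4 arrays. The deposited table holds linear signal intensity per probe set, which the authors computed with MAS5 per the submitters' processing notes. MAS5 version and settings: not given in the sources used here. The genes, lists and partner sets were chosen with earlier results of these data known.

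Of 12488 probe sets, 66 controls were left out. The platform annotation paired 10833 of the other 12422 with 1 gene, 396 with several and 1193 with none, and gene positions are from RefSeq on GRCm38.p6. The 2% trimmed mean over the 12422 was set to 500 on every array, and 32 was added before log2. The 8031 probe sets at or above the array median on at least 1 array entered 1 limma model (limma 3.58.1, R 4.3.3) of 3 groups with an intensity trend, 1 residual degree of freedom and 20.46 prior degrees of freedom. Probe sets were tested singly, without averaging per gene. Named genes were all members, up to 4 called genes of each partner list by size (where none was called, the 2 brightest), and Aldoa, S100a1, Slc1a1, Slc1a2, Sparc and Gjb6. One further item of the rule is not reported here. Asns 95133_at was added because it is the brighter of that gene's probe sets.

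Alternatives were other values added before log2, no or a stricter filter, median scaling, quantile normalization, no trend, no probe sets of the special classes, 1 probe set per gene, each R1 culture alone, 2 groups, and each embryoid body array left out. Comparisons within 1 deposited scale were chosen after seeing the data. On simulated data for neurospheres against R1 cells, with 8031 probe sets, the test recovered 3% of 67 changes of 1, 35.8% of 67 of 2 and 81.8% of 66 of 4 in log2, with 3 false calls. The simulated arrays were drawn independently from normal distributions, with variances from the prior that limma fitted, so the model's assumptions held by construction. The real spread comes from 2 arrays that may be technical repeats, so the 3 false calls do not measure false calls in the data. Far fewer probe sets were changed in the simulation than the 1585 called in the data, so the adjustment was stricter there. The recovered shares are therefore not those of the test on the data. The number of arrays limits the precision.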

Additional observations from a re-analysis of the deposited data

How the results depend on the processing

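No paired analysis was possible because the labels give no replicate numbers and neurospheres and adherent cells have 1 array each. The rises of Aldoc, Sparcl1, Cpe and Pea15a passed in every alternative that kept their probe sets. Leaving out probe sets of the special classes lowered the count of member probe sets that rose to 3, since both of Cpe belong to them. With 1 probe set per gene it was 4, and without either embryoid body array 5. The 1 member probe set that fell became 3 with median scaling, where Clu 95286_at and Gja1 100065_r_at joined (-1.41 and -1.49), 2 against the adherent array alone and 0 against embryoid bodies alone, without the intensity trend or without the special classes. Both probe sets of Gja1 belong to the special classes, so neither was tested in that last setting. The count of member probe sets that fell is taken up again for the array left out. That count was 0 to 1 with an embryoid body array left out. No member fell in embryoid bodies against adherent cells, and 2 did with median scaling. Signs turned for Apoe 95356_at in embryoid bodies against adherent cells (-0.29 with median scaling and -0.64 with quantile normalization, against 0.08), Sparcl1 160319_at there (-0.20 with quantile normalization, against 0.23), Apoe 161321_i_at in neurospheres against embryoid bodies alone (-0.013, against 0.99) and Glul 161826_r_at against the adherent array alone (0.055, against -0.21). None of these values passed the test. Ednrb lost its call with the stricter filter, Pla2g7 against the adherent array alone, and Pcsk6 in 8 of 14 settings.

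Over all probe sets, 1585 calls between neurospheres and R1 cells became 455 without the trend, and 762 without the aggregation or 879 without the suspension array. The 28 calls between embryoid bodies and adherent cells became 0 without the filter or the trend, 57 with the stricter filter, 430 with median scaling, 18 with quantile normalization and 7 without the special classes. The median of all differences moved with scaling from 0.10 to -0.13 (median) and 0.03 (quantile) between neurospheres and R1 cells, and from 0.10 to -0.24 and -0.01 between embryoid bodies and adherent cells. Calls split into 650 higher and 935 lower in neurospheres, and 541 and 1371 with median scaling. In embryoid bodies they split into 21 and 7, 40 and 390 with median scaling, and 16 and 2 with quantile normalization. The cause was not tested. Signals near background, such as those of Sparcl1 in R1 cells, limit how large a difference can be measured.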
